A study of Mus musculus with 10 samples.

Results

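The BTG and TOB genes form a small family of antiproliferative genes, and 5 of them were followed here among the 55573 genes of the count tables: Btg1, Btg2, Btg3, Tob1 and Tob2. They were taken by gene symbol, as a family, and the family was chosen by its CPM values in EGF against Saline libraries, known from earlier results of these data. Every value of that contrast given for them is therefore a description and not a test. RNA was sequenced from bone marrow hematopoietic stem and progenitor cells (HSPCs), the cells from which blood is renewed. In the EGF group, 5 libraries came from C57BL/6 mice given epidermal growth factor under the skin, and in the Saline group 5 libraries came from C57BL/6 mice given saline by that route. All mice, controls included, had received 500 cGy of total body radiation 6 weeks earlier and were 16 weeks of age per the labels. Neither the dose of EGF nor the surface markers used to isolate the cells could be taken from the labels. Whether a library stands for 1 mouse or for pooled mice is not labelled either, so spreads between libraries may be technical.

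Proteins of this family share an N-terminal BTG domain that binds CNOT7 and CNOT8, catalytic subunits of the CCR4-NOT complex, which shortens the poly(A) tails of mRNAs before their decay. Tob1 and Tob2 carry in addition a C-terminal region that binds poly(A)-binding protein. Btg2 is known both as a target of p53 and as an immediate early gene, and Btg1 and Btg2 are known for keeping resting lymphocytes out of the cell cycle.

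Promoters of Btg2, Btg1 and Btg3 are shown because Btg2 and Btg3 had the largest fold differences in the family, while Btg1 is the closest relative of Btg2 and had the smallest fold difference over all 10 libraries. The sequences are from RefSeq (GRCm38.p6), where each member matched by symbol, and run 5′ to 3′ from 250 bases before an annotated transcript start to 50 bases after it. Btg3 has a pair of annotated starts, of which the more downstream is shown. The windows lie at chr1:134079106-134079405 (minus strand) for Btg2, chr10:96616751-96617050 (plus strand) for Btg1 and chr16:78376761-78377060 (minus strand) for Btg3. Capitals mark matches, on either strand, to the cAMP response element TGACGTCA, the CCAAT box, the TATAAA sequence of the TATA box, the FOXO motif GTAAACA and the NF-kB consensus.
Btg2: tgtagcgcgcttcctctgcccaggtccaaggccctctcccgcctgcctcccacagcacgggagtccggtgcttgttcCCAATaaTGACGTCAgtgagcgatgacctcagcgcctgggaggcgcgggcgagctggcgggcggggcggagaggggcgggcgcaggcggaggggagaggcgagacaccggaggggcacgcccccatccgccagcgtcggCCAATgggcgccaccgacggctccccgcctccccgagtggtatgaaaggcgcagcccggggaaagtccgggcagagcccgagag
Btg1: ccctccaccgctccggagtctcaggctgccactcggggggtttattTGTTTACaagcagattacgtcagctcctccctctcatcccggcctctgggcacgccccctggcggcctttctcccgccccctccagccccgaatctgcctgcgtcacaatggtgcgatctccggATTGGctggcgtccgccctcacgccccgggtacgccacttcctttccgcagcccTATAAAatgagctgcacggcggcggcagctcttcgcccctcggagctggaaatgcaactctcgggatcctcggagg
Btg3: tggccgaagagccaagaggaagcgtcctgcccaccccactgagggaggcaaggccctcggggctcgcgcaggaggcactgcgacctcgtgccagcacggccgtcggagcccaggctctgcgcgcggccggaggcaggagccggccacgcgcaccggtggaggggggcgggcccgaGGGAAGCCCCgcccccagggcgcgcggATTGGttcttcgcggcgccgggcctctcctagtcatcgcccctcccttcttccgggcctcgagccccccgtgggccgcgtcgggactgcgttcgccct

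The Btg2 window held a complete cAMP response element, beginning 166 bases before the start, which 1.79% of 32851 promoter windows hold. None of the other members' windows held it. The shorter core TGACG, which also lies inside the full element, was found in the windows of Btg2, Btg1 and Tob1 and in 20.8% of all windows. CCAAT was found in windows of Btg1, Btg2, Btg3 and Tob1 (37.4% of all windows) and TATAAA in those of Btg1 and Tob1 (13.6%). The FOXO motif was found in the Btg1 window (3.65% of all windows), beginning 204 bases before the start. The NF-kB consensus was found in the Btg3 window shown (8.46%), where it overlaps a GC box, and every member had a window with the GC box GGGCGG (35.7%). The AP-1 motif TGAGTCA, the E-box CACGTG, the p53 half-site (exact RRRCWWGYYY) and the CArG box of the serum response factor matched none of the windows. They are held by 5.20%, 7.15%, 8.36% and 1.63% of all windows. Such matches are descriptions of the letters in these windows, and no binding was measured.

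Total counts were 6805106 to 8370820 per library. In EGF replicate 5, 12731 genes had a count, against 18734 to 20046 in the other libraries, so that library stands apart, and log2 fold changes of named genes are given with and without it. The summed level of 12 HSPC markers was 2763 to 3454 CPM (counts scaled to library size with TMM factors) in EGF libraries, or 2763 to 2846 CPM without EGF replicate 5. In Saline libraries it was 2493 to 2741 CPM. Myb (mean 1047 CPM with EGF, 920 CPM with Saline) and Kit (475 and 419 CPM) led that sum. Ly6a (13.3 and 14.6 CPM), Procr (8.26 and 10.2 CPM) and Slamf1 (16.6 and 12.8 CPM) were low. B cell markers summed to 14.5 to 38.9 CPM with EGF (up to 23.7 CPM without EGF replicate 5) and 19.5 to 28.1 CPM with Saline. Cd79b, the highest of them, had 66 to 217 counts per library, and Pax5 had 1 to 21. T and NK cell markers summed to 11.1 to 62.5 CPM with EGF (from 36.4 CPM without EGF replicate 5) and 45.9 to 65.7 CPM with Saline. Nkg7, the highest of them, had 28 to 361 counts per library, and Cd3e had 0 to 18. Plasma cell markers, led by Jchain, summed to 173 to 943 CPM with EGF (from 449 CPM without EGF replicate 5) and 694 to 1496 CPM with Saline. Neutrophil markers summed to 8.56 to 475 CPM with EGF and 11.04 to 363 CPM with Saline. The 475 CPM were in EGF replicate 5, where Btg2, Btg3 and Tob2 were highest, and the other EGF libraries reached 89.8 CPM. Monocyte and macrophage markers summed to 82.4 to 103 CPM with EGF and 57.4 to 202 CPM with Saline. Ly6c2 had 31 to 578 counts per library, Ccr2 114 to 472 and Csf1r 70 to 325, while Ms4a7 was at 0 in every library. Sums of erythroid markers (14.8 to 33.5 CPM with EGF, 14.1 to 31.3 CPM with Saline) and of megakaryocyte markers (145 to 279 CPM with EGF, 147 to 279 CPM with Saline) overlapped between the groups. The part of these cell types in the values of the family was not tested, and in bulk RNA fewer cells of a type and less RNA per cell cannot be told apart.

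Per length, Btg2 was the most abundant member in every library and Btg3 the least. On the scale of CPM per kilobase of annotated exon, Btg2 had a level of 61.8 ± 8.98 with EGF and 40.6 ± 4.12 with Saline (SD, n = 5 each). On the same scale Btg1 had a level of 20.3 ± 1.26 in the EGF group and 18.1 ± 1.38 in the Saline group. The level of Tob2 was 18.1 ± 2.01 with EGF and 15.5 ± 1.07 with Saline, and that of Tob1 was 8.98 ± 1.83 with EGF and 7.59 ± 1.11 with Saline. Btg3 closed the order with a level of 3.30 ± 0.853 with EGF and 1.95 ± 0.233 with Saline. Btg1 and Tob2 were the neighbours whose ranges overlapped, in both groups, and Tob2 exceeded Btg1 in EGF replicate 5 alone. Ranges of the other neighbours, Btg2 with Btg1, Tob2 with Tob1 and Tob1 with Btg3, did not overlap in either group. Lengths counted every exon base of every annotated transcript, from 2288 for Tob1 to 6664 for Tob2, so the order holds for those lengths.

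**Figure D1:**
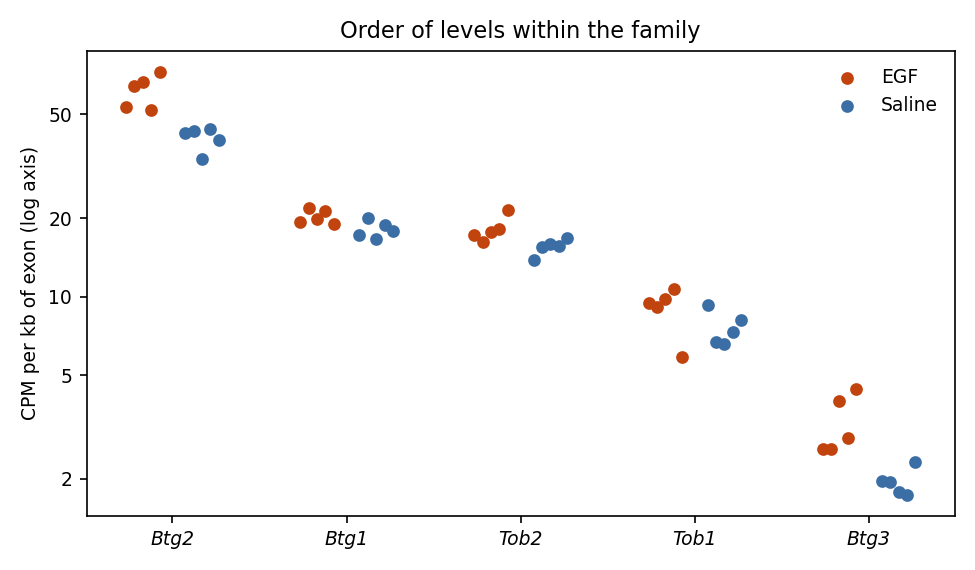
Level of each family gene in each library, in CPM per kilobase of exon on a log axis, with EGF libraries left of Saline libraries and 1 point per library in replicate order. Btg2 is highest and Btg3 lowest in all 10 libraries, and Btg1 and Tob2 overlap.

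Within the family, the log2 fold change with EGF was above 0 for all 5 members, and for 48.5% of the 12874 genes tested. Their median log2 fold change was 0.24, or 0.36 without EGF replicate 5, beside medians of -0.01 and -0.0002 over all genes tested. With adjustment over all genes tested (Benjamini-Hochberg), edgeR's quasi-likelihood test put 0 of the 5 members past a threshold of 0.05, where 0.00777% of all genes did. At an unadjusted p under 0.05 there were 3 members, where 8.87% of all genes passed, 6.14% higher and 2.73% lower. DESeq2 and limma-voom with sample quality weights each called 1 member, Btg2, where they called 0.162% and 0.0932% of the genes they tested. The groups did not overlap for 2 members, Btg2 and Btg3, each with every EGF library higher, where this held for 1.62% of genes. Without EGF replicate 5 the same held for 2 members and for 2.66% of genes. Nothing is read from these counts, since the family was taken with this contrast known. All 5 members passed the filter on low counts.

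Btg2, an inhibitor of cell division that recruits the deadenylase to mRNAs, lies on chromosome 1 from 134075170 to 134079120 (GRCm38, minus strand) in 2 exons. Its level was 147, 177, 183, 142 and 199.6 CPM in EGF replicates 1 to 5, against 117, 118, 92.6, 120.4 and 109 CPM in Saline replicates 1 to 5. The lowest EGF library, replicate 4, was still above the highest Saline library, replicate 4, and EGF replicate 5 was the highest of all. Mean levels were 169.6 ± 24.6 CPM in EGF libraries, against 111 ± 11.3 CPM in Saline libraries (SD, n = 5 each), a log2 fold change of 0.61 (SE 0.11). Without EGF replicate 5 the EGF mean was 162 ± 20.8 CPM (SD, n = 4) and the log2 fold change 0.54 (SE 0.09). Counts behind these values were 1169 to 1425 with EGF and 779 to 918 with Saline, and no other annotated gene overlaps Btg2, whose window with the cAMP response element is printed above.

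Btg1, the closest relative of Btg2, lies on chromosome 10 from 96617006 to 96622809 on the plus strand. Its level was 102, 116, 104, 112 and 101 CPM in EGF replicates 1 to 5, against 91.0, 106, 87.5, 99.7 and 94.1 CPM in Saline replicates 1 to 5. The groups overlapped: EGF replicates 2 and 4 were above all Saline libraries, and EGF replicates 1, 3 and 5 were below Saline replicate 2. Mean levels were 107 ± 6.66 CPM in EGF libraries, against 95.6 ± 7.26 CPM in Saline libraries (SD, n = 5 each), a log2 fold change of 0.16 (SE 0.08), or 0.18 (SE 0.07) without EGF replicate 5. The copies of Btg1 named as pseudogenes, Btg1-ps1 and Btg1-ps2 had 0 counts and 0 to 1 counts per library, so few reads were assigned to them. Reads that match several copies may have been left out or shared out, which no source used here gives.

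Within a library, the ratio of Btg2 to Btg1 was 1.44, 1.53, 1.76, 1.27 and 1.98 in EGF replicates 1 to 5, against 1.28, 1.12, 1.06, 1.21 and 1.16 in Saline replicates 1 to 5. This ratio does not depend on the scaling of the library. EGF replicate 4 was the one EGF library inside the Saline range, just under Saline replicate 1. Btg2 made up 34.5% to 42.0% of the counts of the family with EGF and 30.1% to 35.4% with Saline, while Btg1 made up 21.2% to 27.3% with EGF and 27.4% to 30.2% with Saline. EGF replicate 5 had the 42.0% and the 21.2%.

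Btg3, a relative of Btg1 and Btg2 that in human cells binds the cell cycle factor E2F1, lies on chromosome 16 from 78332637 to 78377192 on the minus strand. Its level was 10.4, 10.4, 16.0, 11.6 and 17.8 CPM in EGF replicates 1 to 5, against 7.87, 7.78, 7.13, 6.99 and 9.35 CPM in Saline replicates 1 to 5. All EGF libraries were above all Saline libraries, with EGF replicates 3 and 5 well above the other EGF libraries. These levels rest on 83, 81, 112, 98 and 127 counts with EGF and 62, 60, 60, 52 and 70 counts with Saline. Mean levels were 13.2 ± 3.43 CPM in EGF libraries, against 7.82 ± 0.936 CPM in Saline libraries (SD, n = 5 each), a log2 fold change of 0.76 (SE 0.23). Without EGF replicate 5 the EGF mean was 12.1 ± 2.64 CPM (SD, n = 4) and the log2 fold change 0.63 (SE 0.17). Exons of Cxadr on the other strand cover 17.3% of the exon bases of Btg3, and Cxadr itself had 0 to 10 counts per library. No source used here gives the strand setting of the counting, so reads of the shared bases cannot be told apart.

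Tob1, which joins the deadenylase to poly(A)-binding protein and also binds SMAD proteins, lies on chromosome 11 from 94211454 to 94215495 on the plus strand. Its level was 21.6, 20.9, 22.4, 24.4 and 13.4 CPM in EGF replicates 1 to 5, against 21.2, 15.3, 15.1, 16.7 and 18.6 CPM in Saline replicates 1 to 5. EGF replicate 5 was the lowest of all 10 libraries, and EGF replicates 1, 3 and 4 were above every Saline library. Mean levels were 20.5 ± 4.18 CPM in EGF libraries, against 17.4 ± 2.55 CPM in Saline libraries (SD, n = 5 each), a log2 fold change of 0.24 (SE 0.19). Without EGF replicate 5 the EGF mean was 22.3 ± 1.54 CPM (SD, n = 4) and the log2 fold change 0.36 (SE 0.13). Tob1 was thus the member whose value moved most, in proportion, with that library, and its counts were 96 to 207 with EGF and 118 to 167 with Saline.

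Tob2, the other TOB gene, lies on chromosome 15 from 81848272 to 81858796 on the minus strand. Its level was 114, 108, 118, 121 and 143 CPM in EGF replicates 1 to 5, against 92.3, 103, 106, 105 and 112 CPM in Saline replicates 1 to 5. EGF replicate 5 was the highest of all, and EGF replicate 2 was the one EGF library below Saline replicate 5. Mean levels were 121 ± 13.4 CPM in EGF libraries, against 104 ± 7.13 CPM in Saline libraries (SD, n = 5 each), a log2 fold change of 0.22 (SE 0.09). Without EGF replicate 5 the EGF mean was 115 ± 5.46 CPM (SD, n = 4) and the log2 fold change 0.16 (SE 0.07). An antisense gene with 0 to 4 counts per library overlaps 4.34% of the exon bases of Tob2. Btg4, the remaining BTG gene of the tables, had 0 to 1 counts per library.

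**Figure D2:**
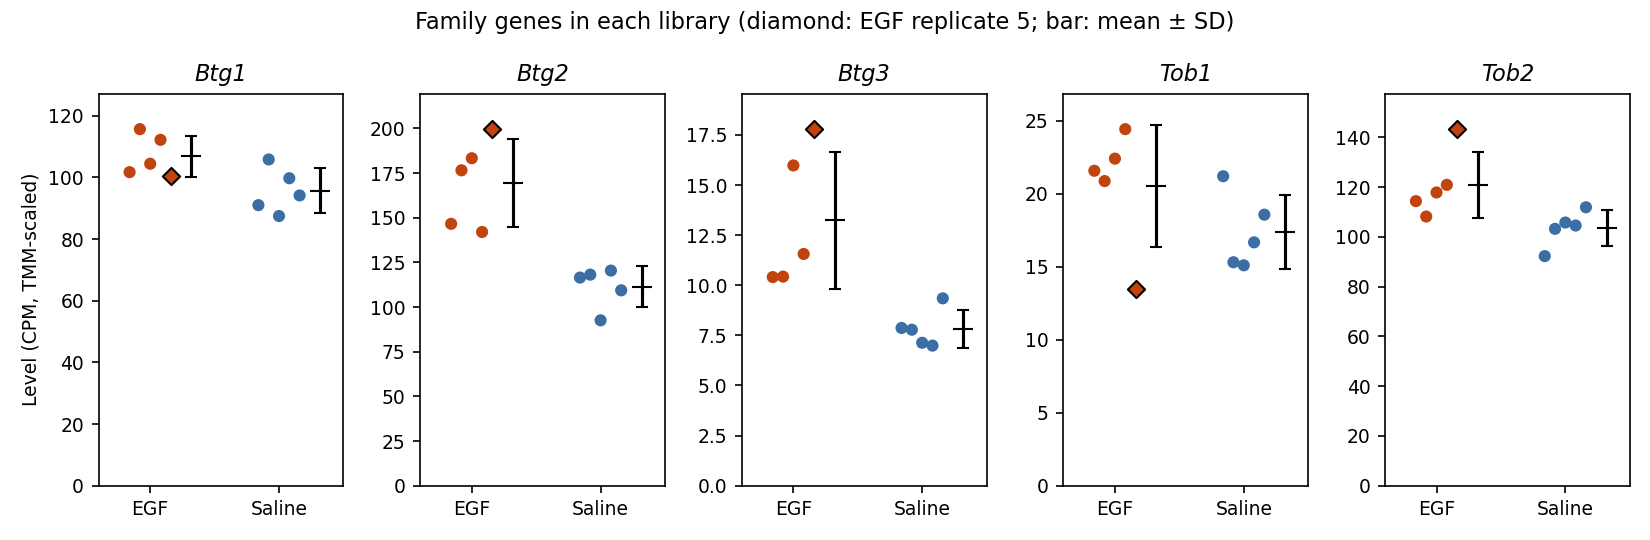
Level of each family gene in CPM (TMM-scaled, linear axes from 0), EGF libraries left and Saline libraries right, in replicate order within a group; the bar beside the points is the mean ± SD and the diamond is EGF replicate 5. For Btg2 and Btg3 all EGF points lie above all Saline points, and for Tob1 the diamond at 13.4 CPM lies below every other library.

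**Figure D3:**
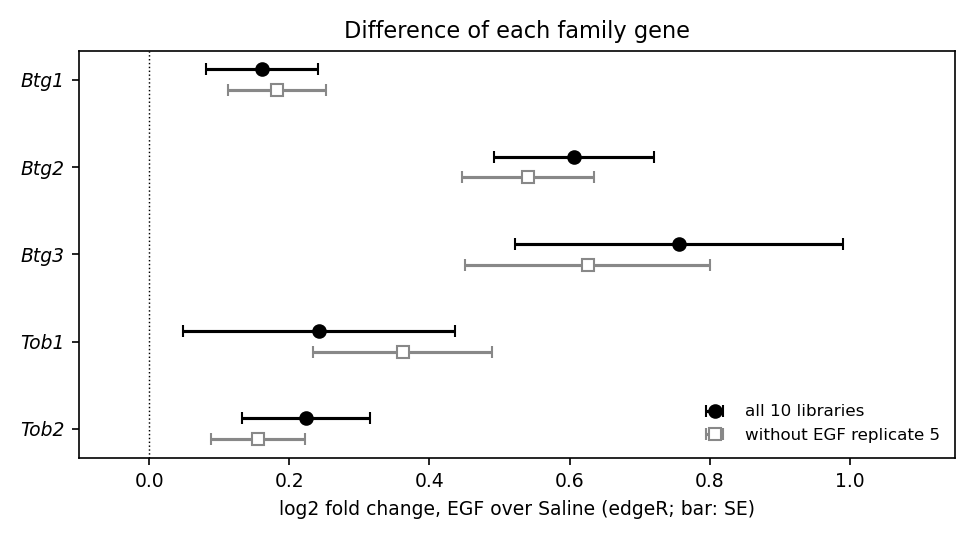
Log2 fold change of EGF over Saline for each family gene, with its standard error as the bar, from all 10 libraries (filled) and without EGF replicate 5 (open). Values run between 0.16 and 0.76 with all libraries and between 0.16 and 0.63 without that library.

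Summed over the 5 members, the level was 395, 432, 444, 411 and 475 CPM in EGF replicates 1 to 5, against 329, 350.3, 308, 348 and 343 CPM in Saline replicates 1 to 5. Every EGF library was above every Saline library in this sum, which Btg1, Btg2 and Tob2 dominate. The sum of the HSPC markers given above was likewise higher in every EGF library than in any Saline library. Of these 12 markers, 8 had a log2 fold change above 0, while Cd34, Flt3, Ly6a and Procr had lower mean levels with EGF. The part of the HSPC markers in the sum of the family was not tested.

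In EGF replicate 5 each member was closer to its group than the median gene was. The absolute log2 difference of that library from the mean of the other EGF libraries had a median of 0.95 over all genes tested. The difference was -0.11 for Btg1, 0.31 for Btg2, 0.57 for Btg3, -0.72 for Tob1 and 0.31 for Tob2. The share of genes with a smaller absolute difference ran from 6.71% for Btg1 to 40.2% for Tob1. Genes of every level enter this share, with no matching by level. Btg1, Btg2 and Tob2 had a higher mean CPM than 85.8% to 90.5% of genes tested, against 32.1% for Btg3 and 45.0% for Tob1.

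Among libraries of a group, 5 of the 10 pairs of members had deviations with a coefficient above 0. Deviations of log2 CPM from the group mean, over the 9 libraries without EGF replicate 5, gave a Pearson r between -0.36, for Btg2 with Tob2, and 0.47, for Btg1 with Btg2, with a median of 0.05 over the 10 pairs. With all 10 libraries the values ran from -0.72, for Tob1 with Tob2, to 0.67, for Btg3 with Tob2. The count of pairs above 0 depended on the setting. It was 7 with scaling by library size only (median 0.10) and 7 with the replicate number as a block (median 0.40). These are descriptions over few libraries that share their depth and scaling.

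The named genes with the most similar deviations, among 8905 others with a mean of at least 10 CPM, reached high coefficients in part because they are the highest of so many. For Btg2 they were Lrsam1 (r = 0.92 over 9 libraries), the platelet and leukocyte protein kinase C substrate gene Plek (0.92) and Sigirr (0.91), an inhibitor of interleukin receptor signalling. For Btg1 they were Rpl36a-ps2 (0.92), Fam173a (0.92) and Cebpb (0.91), a transcription factor of myeloid cells. For Btg3 they were Tango6 (0.96), Ppp1r15a (0.95), a stress-induced phosphatase subunit, and Man2c1 (0.95). For Tob1 they were Lrp8 (0.98), B4galnt4 (0.93) and S100a6 (0.92), and for Tob2 Cwc27 (0.98), Nit1 (0.95) and Kif13a (0.95). With all 10 libraries r was 0.94 for Lrsam1, 0.87 for Plek and -0.15 for Sigirr with Btg2, and -0.14 for Rpl36a-ps2, 0.41 for Fam173a and 0.84 for Cebpb with Btg1. It was -0.20 for Tango6, 0.87 for Ppp1r15a and -0.29 for Man2c1 with Btg3, and 0.17 for Lrp8, -0.41 for B4galnt4 and 0.87 for S100a6 with Tob1. All 3 genes named for Tob2 had an r between 0.88 and 0.96 over the 10 libraries.

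Genes related to the family were read from 9 lists of 95 genes in all, of which 94 passed the filter on low counts. They run from its binding partners and inducers to G1 genes, proliferation markers and serum-response genes induced with Btg2. In this fit 1 gene rose with EGF and 0 fell, by edgeR's quasi-likelihood test adjusted over all genes, where 0.00777% of all genes passed. At an unadjusted p under 0.05 there were 13, 12 of them higher, where 8.87% of all genes passed, 6.14% higher and 2.73% lower. A log2 fold change above 0 was found for 50 of the 94, where 48.5% of all genes had one, and the median was 0.01. Without EGF replicate 5, 47 were above 0 and the median was -0.0001. These shares over all genes are the ones to set beside the edgeR counts of each list below, where most are not repeated.

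None of the 11 CCR4-NOT genes passed in either direction by edgeR, at an adjusted or an unadjusted p under 0.05, and DESeq2 called none. Their median log2 fold change was -0.06, or -0.02 without EGF replicate 5, with 4 above 0 either way. Cnot7, the catalytic subunit that the BTG domain binds, was at 68.1 ± 8.29 CPM in EGF libraries, against 64.9 ± 4.25 CPM in Saline libraries (SD, n = 5 each; log2 fold change 0.07, SE 0.10, or 0.003 without EGF replicate 5). Cnot8, its close relative, was at 95.9 ± 35.1 CPM in EGF libraries, against 83.2 ± 9.53 CPM in Saline libraries (log2 fold change 0.21, SE 0.20), and without EGF replicate 5, where it reached 158 CPM, its log2 fold change was -0.05. The CCR4-NOT genes with the smallest p were Cnot9 (log2 fold change -0.35, SE 0.19), Cnot6, another catalytic subunit (-0.25, SE 0.15), and Cnot3 (0.38, SE 0.24). Without EGF replicate 5 these came to -0.20, -0.13 and 0.03.

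Around that complex, 0 of 5 genes of poly(A)-binding proteins and of the PAN2-PAN3 deadenylase passed in either direction by edgeR, with 1 at an unadjusted p under 0.05 and a median log2 fold change of 0.26, or 0.15 without EGF replicate 5. It was Pan3, at 363 ± 58.1 CPM in EGF libraries, against 302 ± 17.3 CPM in Saline libraries (SD, n = 5 each; log2 fold change 0.26, SE 0.11), or 0.16 without EGF replicate 5. Pan2 had 0.29 (SE 0.16) and Pabpn1 0.26 (SE 0.18), or 0.15 and 0.17 without that library. Of 13 RNA-binding adaptors of deadenylation 0 passed, with 2 at an unadjusted p under 0.05: Tnrc6b, a partner of Argonaute (0.26, SE 0.09), and Zfp36l1, which binds AU-rich elements (0.27, SE 0.12). Tnrc6a had 0.21 (SE 0.12). Leaving out EGF replicate 5 gave 0.18 for Tnrc6b, 0.25 for Zfp36l1 and 0.11 for Tnrc6a. Of 9 decapping and decay genes 0 passed, and 0 had an unadjusted p under 0.05. The exonuclease gene Xrn1 had 0.17 (SE 0.08), Edc3 0.26 (SE 0.24) and Edc4 -0.26 (SE 0.26), which were 0.15, -0.05 and -0.05 without EGF replicate 5. DESeq2 called none of these genes.

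Among the other binding partners of the family, 0 of 7 tested genes passed by edgeR or DESeq2, with 1 higher and 1 lower at an unadjusted p under 0.05. Prmt1, the arginine methyltransferase that Btg1 and Btg2 bind, was at 74.9 ± 10.8 CPM in EGF libraries, against 95.9 ± 4.76 CPM in Saline libraries (SD, n = 5 each; log2 fold change -0.36, SE 0.11), and -0.27 without EGF replicate 5. Smad7, an inhibitor of TGF-beta signalling, was at 65.3 ± 10.9 CPM in EGF libraries, against 48.6 ± 7.12 CPM in Saline libraries (log2 fold change 0.43, SE 0.14), and Smad2 had 0.13 (SE 0.10), or 0.33 and 0.09 without that library. Of 7 known inducers of family genes 0 passed and 0 had an unadjusted p under 0.05, with Rela at -0.09 (SE 0.10), Egr1 at 0.18 (SE 0.19) and Foxo3 at 0.11 (SE 0.12). Rela was at -0.07, Egr1 at 0.32 and Foxo3 at 0.21 without EGF replicate 5.

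Of 12 genes of the G1 phase, where the family is known to act, 0 passed by edgeR or DESeq2, and 1 had an unadjusted p under 0.05 by edgeR. It was Cdkn1b, which encodes the p27 inhibitor of cyclin-dependent kinases, at 131 ± 16.7 CPM in EGF libraries, against 106 ± 6.45 CPM in Saline libraries (SD, n = 5 each; log2 fold change 0.30, SE 0.09), or 0.22 without EGF replicate 5. Cdk4 had -0.32 (SE 0.16) and Cdk6 -0.23 (SE 0.12), or -0.20 and -0.13 without that library. Of 10 proliferation markers 0 passed, with 0 at an unadjusted p under 0.05, 2 with a log2 fold change above 0 and a median of -0.24, which was -0.14 without EGF replicate 5. Pcna, the sliding clamp of DNA replication, had -0.22 (SE 0.10), Ccna2 -0.38 (SE 0.21) and Birc5 -0.52 (SE 0.31). Values without EGF replicate 5 were -0.16, -0.22 and -0.29. The 2 above 0 were Mki67, at 0.17 (SE 0.12), and Top2a, at 0.15 (SE 0.12), or 0.04 and 0.03 without that library. They had the highest levels of the list, 1739 CPM for Mki67 and 993 CPM for Top2a in EGF libraries, against 1551 CPM and 896 CPM in Saline libraries.

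The list named serum-response genes induced with Btg2 gave the only call by edgeR in these lists, 1 of 22. Its name is not a result of these data. At an unadjusted p under 0.05 by edgeR, 7 were higher and 0 lower, where 6.14% of all genes were higher and 2.73% lower. The median log2 fold change of the list was 0.18, or 0.22 without EGF replicate 5. Of them 16 had a log2 fold change above 0, or 19 without EGF replicate 5. The gene that rose was Cd69, an early activation antigen of leukocytes, at 213 ± 18.0 CPM in EGF libraries, against 120 ± 11.9 CPM in Saline libraries (SD, n = 5 each; log2 fold change 0.83, SE 0.09, edgeR adjusted p = 0.0226). It did not pass without Saline replicate 1, 3, 4 or 5, nor without EGF replicate 2, 3 or 4 (edgeR adjusted p between 0.0884 and 0.175), nor with scaling by library size (0.0797), while its log2 fold change was 0.78 to 0.88 in every setting tried and 0.83 without EGF replicate 5. Earlier results of these data, Cd69 passing among them, were known when the list was written, so nothing is read from the counts of this list. The nuclear receptor gene Nr4a2 was at 74.4 ± 20.3 CPM in EGF libraries, against 36.5 ± 7.51 CPM in Saline libraries (log2 fold change 1.03, SE 0.21, or 0.96 without EGF replicate 5), and DESeq2 called it along with Cd69. Fosl2, an AP-1 subunit, was at 94.6 ± 24.2 CPM in EGF libraries, against 57.6 ± 4.05 CPM in Saline libraries (log2 fold change 0.72, SE 0.17, or 0.69 without that library). Fos, the classic member of this group, was at 678 ± 152 CPM in EGF libraries, against 679 ± 117 CPM in Saline libraries, with a log2 fold change of -0.0005, or -0.13 without EGF replicate 5. Egr1 was at 311 ± 80.0 CPM in EGF libraries and 275 ± 50.8 CPM in Saline libraries.

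**Figure D4:**
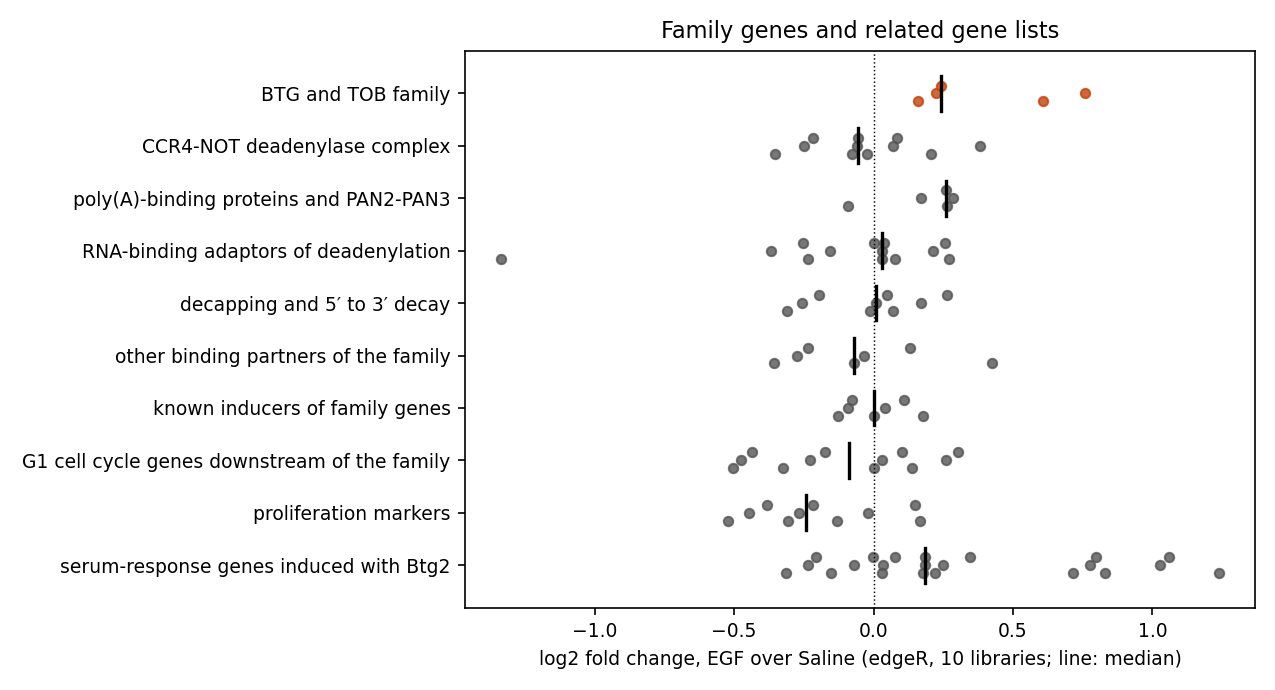
Log2 fold change of EGF over Saline by edgeR for the 5 family genes (top) and for each related list, with 1 point per gene and the median as a line. The family points run between 0.16 and 0.76, with a median of 0.24. Medians of the lists run from -0.24, for the proliferation markers, to 0.26, for the poly(A)-binding and PAN2-PAN3 genes. Between them are -0.06 for the CCR4-NOT genes and 0.18 for the serum-response genes.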

How the data were processed

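The authors deposited whole-number counts of reads per Ensembl gene, 1 file per library, with no normalization per the file headers and values. Per the labels' protocols, the Clontech library kit was used with rRNA depletion and PCR, on RNA from a Qiagen micro-scale column kit. Tools named in the submitters' processing notes are STAR and bcl2fastq 2.17, with GRCm38 as build. No source used here gives the counting tool, its strand setting or the annotation. Date-like symbols, 27 in all, were restored from their identifiers. Positions and exon lengths are from GENCODE (GRCm38).

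From these counts, edgeR 4.0.16 (R 4.3.3) was run on all 10 libraries: TMM scaling, a minimum count of 10 in filterByExpr, a quasi-likelihood F test between the 2 groups (EGF over Saline), and Benjamini-Hochberg adjustment over 12874 genes at 0.05. Each standard error is the log2 fold change over the root of F. CPM values are TMM-scaled, and log2 CPM for deviations used a prior count of 2. Alternatives used DESeq2 1.42.0 and limma 3.58.1, other scalings and filters, the replicate number as a block, and each library left out in turn. PCR copies cannot be told apart, so depth covers counting error only. Libraries differed by more than sampling noise within groups (chi-square per degree of freedom 6.51 to 102), and no library repeated another.

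The members and lists were chosen with earlier results of these data known. All 5 members are named. From each list, those that passed and the 3 ranked first by p are named, with Cnot7 and Cnot8, and for each member the 3 genes most like it, leaving out genes without an official name. Fos, Mki67 and Top2a were named after their values were seen. A marker gene left out of the B cell sum is not reported here.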

Additional observations from a re-analysis of the deposited data

How the results depend on the processing

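All 5 members kept a log2 fold change above 0 in each of 19 settings: 0.13 to 0.20 for Btg1, 0.54 to 0.66 for Btg2, 0.56 to 0.83 for Btg3, 0.17 to 0.37 for Tob1 and 0.13 to 0.26 for Tob2. Members called were 0 by edgeR in every setting tried, each library left out in turn included, 1 by DESeq2, 1 by limma-voom with sample quality weights and 0 by limma-voom. All genes called numbered 1 with all 10 libraries, 0 with library size only, 27 by DESeq2, 12 by limma-voom with sample quality weights and 0 with the replicate block. With 1 library left out they numbered 0 to 8, most without EGF replicate 5. Genes called in the related lists numbered 1, against 0 with library size only, 2 by DESeq2, 0 with the replicate block (Cd69 at log2 fold change 0.83, edgeR adjusted p = 0.780) and 0 to 1 with 1 library left out. Deviations of same-numbered libraries from their group means had r between -0.08 and 0.02. EGF replicate 5 entered its group mean, so these values cannot exclude a pairing, and the labels state none. The median r between members was 0.40 with deviations also taken from the mean of each number (replicate block), against 0.05 without. In that block the EGF and Saline deviations of a number are mirror images, so its 8 libraries hold fewer independent values. There r ran from -0.61 to 0.90. Of the 15 most similar genes, 3 remained with all 10 libraries, 4 with Spearman rho and 2 with the replicate block. With library size only 9 remained, and 10 with genes of a mean of at least 1 CPM. The cause of these changes was not tested. Btg3 rests on the fewest reads of the family, 52 to 127 per library.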
